A study of Mus musculus with 24 samples.

Results

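Ephrins and Eph receptors are cell-surface partners that pass signals between touching cells, and 9 of their genes were followed here across 4 mouse heart genotypes. The members are the ligand genes Efna1, Efna5, Efnb1, Efnb2 and Efnb3 and the receptor genes Epha4, Ephb2, Ephb3 and Ephb4, chosen by symbol from the 52724 gene rows of the count table. All 9 were found, and all 9 were among the 16018 genes that passed the filter on low counts and were tested. Efnb3 gave the set its name because its level in 1 deletion genotype had already been seen to be low. Its differences from that genotype are therefore given as descriptions without a test.

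RNA was sequenced from whole hearts in a study of Fkbp1a, which encodes the immunophilin FKBP12, a binding protein of FK506 and rapamycin. FKl/l hearts carried the floxed Fkbp1a gene and no Cre. FKl/l MCK+ hearts carried the floxed gene with Cre under the muscle creatine kinase promoter, which the study's design places at embryonic day 13. FKl/l MHC+ hearts carried it with Cre under the α-myosin heavy chain promoter, placed at day 9, and MHC CRE Only hearts are labelled as having that Cre alone. There were 6 libraries of each genotype, split evenly over 2 batches, and library names give genotype, batch and number. There were no libraries with the MCK driver alone among those analysed, so in FKl/l MCK+ the deletion and the driver cannot be told apart. The promoters act in muscle cells, and other cells of the heart are not their labelled target. The sources used here do not give the age of the animals.

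Eph receptors are receptor tyrosine kinases. When a receptor on one cell meets an ephrin on its neighbour, forward signalling runs into the receptor's cell and reverse signalling can run into the ligand's cell. A-type ephrins are tethered by a lipid anchor, and B-type ephrins cross the membrane and have a cytoplasmic tail. In blood vessels ephrin-B2 marks arterial and EphB4 venous endothelium, and their pairing is needed for heart and vessel development. Ephrin-B3 is best known as a midline signal for growing axons.

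The B-type ligands have closely related tails, so their coding ends are shown to compare the 3 genes whose reads must be told apart. These are the last 99 coding bases, stop codon included, of the longest coding transcript of each gene in GENCODE M21 (GRCm38), 5′ to 3′ on the coding strand. Capitals mark bases that all 3 genes share in an ungapped alignment from the stop codon.
Efnb1: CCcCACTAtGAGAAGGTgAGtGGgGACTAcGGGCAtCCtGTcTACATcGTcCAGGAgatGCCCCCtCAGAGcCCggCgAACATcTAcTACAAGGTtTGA
Efnb2: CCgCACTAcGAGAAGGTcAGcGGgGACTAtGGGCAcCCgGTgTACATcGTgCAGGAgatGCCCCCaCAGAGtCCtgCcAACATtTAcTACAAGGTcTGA
Efnb3: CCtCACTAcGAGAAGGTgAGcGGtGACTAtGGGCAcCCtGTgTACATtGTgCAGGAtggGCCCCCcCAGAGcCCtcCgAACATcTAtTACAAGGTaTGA
All 3 genes shared 77 of the 99 positions (77.8%). Efnb3 matched Efnb1 at 82 and Efnb2 at 84 of them. The lower-case differences are spread along the stretch, and over all annotated transcripts the longest run of bases that Efnb3 shared exactly with another member was 22, with Efnb1. Among the 9 members the longest such run was 30 bases, between Epha4 and Ephb3.

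Levels are in CPM, a gene's counts relative to the counts of its library, with library sizes scaled by the trimmed mean of M values. The gene rows held between 27799403 and 40412640 counts per library. Fkbp1a fell from 130 ± 10.1 CPM in FKl/l (SD, n = 6) to 65.1 ± 10.7 in FKl/l MCK+ and 59.1 ± 12.6 in FKl/l MHC+ (edgeR quasi-likelihood adjusted p = 0.00032 and 5.47e-06). In MHC CRE Only 5 libraries had 122 to 138 CPM, but the one labelled 1-3 had 81.8 CPM, which goes against its label. Markers of lung epithelium summed to 779 CPM in MHC CRE Only 2-3 and to 252 CPM in FKl/l 1-1. Results were recomputed without these 3 libraries together. Markers of cardiomyocytes summed to 55897 ± 3522 CPM in FKl/l and 55638 ± 3612 CPM in FKl/l MHC+ (SD, n = 6 each), and none of the 10 was at 0 or called in any genotype comparison.

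Per length of exon, Efnb3 was the most abundant member over the 24 libraries, at 18.4 ± 4.84 CPM per kb (SD, n = 24). Ephb4 followed at 13.2 ± 1.22 and Efna1 at 12 ± 2.12 CPM per kb. These 3 levels overlapped in their spread. Efnb1 had 7.76 ± 1.01 and Epha4 4.82 ± 0.523 CPM per kb, each apart from its neighbours in this order by mean and SD. Single libraries of Efnb1 still overlapped those of Efna1, and single libraries of Epha4 those of Efna5. Efna5, Ephb3 and Efnb2 lay together at 2.41 ± 0.638, 2.14 ± 0.44 and 1.95 ± 0.245 CPM per kb. Ephb2 was last at 0.0919 ± 0.0332 CPM per kb, with 19 to 80 counts per library, so its values carry the most counting error. In FKl/l, Efnb3 stood above Ephb4, at 23.2 ± 3.84 against 13.5 ± 0.813 CPM per kb (SD, n = 6 each). In FKl/l MHC+ the levels were 12.5 ± 1.7 and 11.7 ± 0.846 CPM per kb and overlapped.

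**Figure D1:**
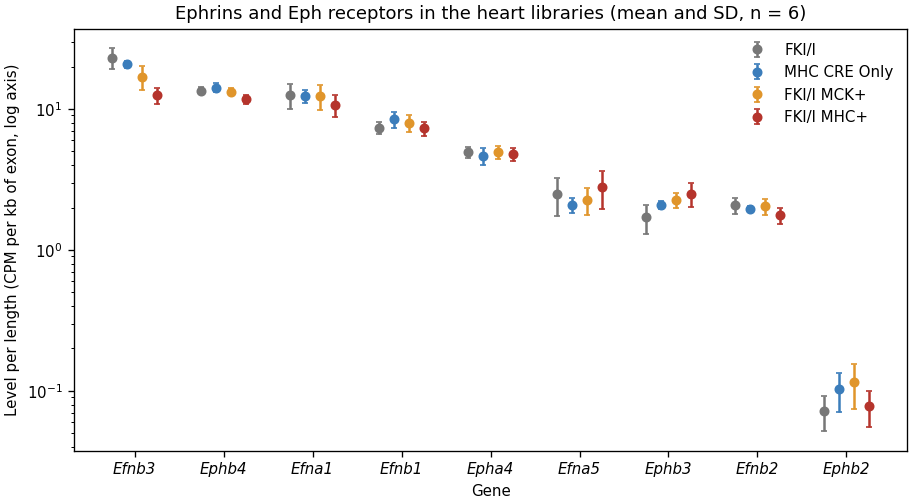
Level of each member per kilobase of exon (CPM per kb, log axis) in the 4 genotypes; points are means and bars the SD of 6 libraries. Efnb3 is highest and Ephb2 lowest, and the Efnb3 points descend from 23.2 in FKl/l to 12.5 CPM per kb in FKl/l MHC+.

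Efnb3 (ENSMUSG00000003934) lies on the minus strand of chromosome 11 from 69554092 to 69560205 in GRCm38, has 1 annotated transcript and overlaps no other gene. In FKl/l its libraries ranged from 59.9 to 91.7 CPM with a median of 73.4. In MHC CRE Only they ranged from 59.7 to 69.6 with a median of 67.3. In FKl/l MCK+ they ranged from 37.5 to 65 with a median of 55.4, and in FKl/l MHC+ from 31.8 to 48.6 with a median of 40.1. Every FKl/l MHC+ library lay below every library of both control genotypes, whereas the FKl/l MCK+ libraries overlapped each of the other genotypes. Whole-heart RNA cannot tell fewer cells of a type apart from less RNA per cell.

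The means were 73.8 ± 12.2 CPM in FKl/l, 66.2 ± 3.49 in MHC CRE Only, 54.2 ± 10.4 in FKl/l MCK+ and 39.8 ± 5.42 in FKl/l MHC+ (SD, n = 6 each). Neighbours in this order overlapped in their libraries. As a description, Efnb3 in FKl/l MHC+ was at 54.4% of FKl/l (log2 fold change -0.88, SE 0.103) and at 60.1% of MHC CRE Only (log2 fold change -0.74, SE 0.103). It was at 74% of FKl/l MCK+ (log2 fold change -0.43, SE 0.103), where the groups overlapped. The comparisons of FKl/l MHC+ share its libraries, and those against FKl/l share the FKl/l libraries. Without the 3 libraries named above the first 2 values were -0.91 and -0.77.

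The 6 FKl/l MCK+ libraries were also set against the 6 of FKl/l. That comparison was not part of the rule that chose Efnb3, but its libraries entered comparisons that were, so its test is not independent of the choice. In FKl/l MCK+ Efnb3 was at 73.4% of FKl/l (log2 fold change -0.45, SE 0.102) and was not called by edgeR's quasi-likelihood test with Benjamini-Hochberg adjustment (adjusted p = 0.181). The unadjusted p was 0.00018. The adjusted p was 0.0181 by DESeq2 and 0.0421 when only these 2 genotypes entered the fit, so the call depends on the method. Leaving out 1 library at a time kept it uncalled in all 24 fits, with adjusted p between 0.0768 and 0.617. MHC CRE Only and FKl/l differ by their labels in both the driver and the floxed gene, so the 2 cannot be told apart. Efnb3 was not called between them, with MHC CRE Only at 90.5% of FKl/l (log2 fold change -0.14, SE 0.102, edgeR quasi-likelihood adjusted p = 0.587). That value was 0.09 in batch 1 alone (adjusted p = 0.708) and -0.37 in batch 2 alone (adjusted p = 0.167).

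**Figure D2:**
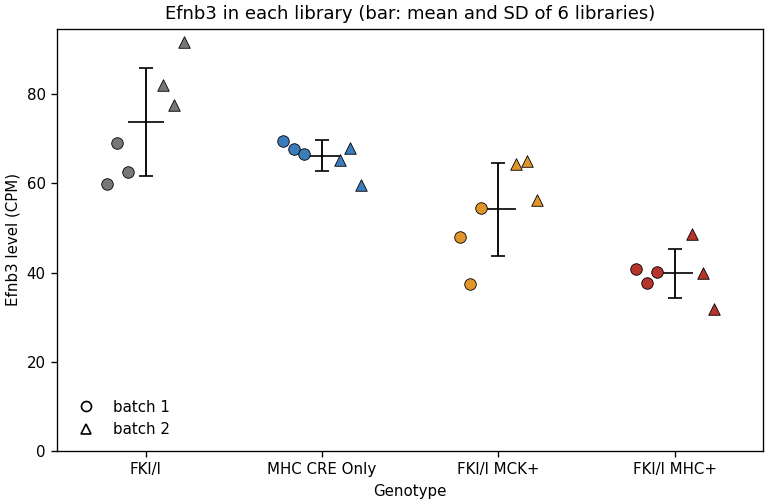
Efnb3 level (CPM) in each of 24 libraries by genotype; circles are batch 1, triangles batch 2, and the bar gives the mean and SD of 6 libraries. The FKl/l MHC+ libraries, 31.8 to 48.6 CPM, lie below all libraries of FKl/l and MHC CRE Only.

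The batch means of Efnb3 lay apart in FKl/l and FKl/l MCK+ and close in the others. In FKl/l it averaged 63.9 CPM in batch 1 and 83.8 CPM in batch 2, and in FKl/l MCK+ 46.7 and 61.8 CPM. MHC CRE Only had 68 and 64.3 CPM and FKl/l MHC+ 39.5 and 40.1 CPM. Over all genotypes batch 2 was higher (log2 fold change 0.19, SE 0.0727, edgeR quasi-likelihood adjusted p = 0.0443), a call lost without any FKl/l library, any FKl/l MCK+ library but 1-3, or libraries 1-2 or 2-1 of FKl/l MHC+ (adjusted p up to 0.138). It was lost too with RLE size factors (adjusted p = 0.0875), no filter on low counts (0.125), DESeq2 (0.0809), limma voom (0.0524) and the replicate block (0.0594). Within batches 1 and 2 the log2 fold change was -0.66 and -1.06 in FKl/l MHC+ against FKl/l, and -0.75 and -0.69 against MHC CRE Only. Against FKl/l MCK+ it was -0.20 and -0.62, so that difference was small in batch 1. FKl/l MCK+ against FKl/l gave -0.46 and -0.44. A dependence of the genotype differences on batch was not called for Efnb3 (adjusted p = 0.103 by the quasi-likelihood test of the interaction).

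With both batches in the fit, no difference of the other B-type ligands between genotypes was called. Efnb1 (X chromosome, 99136130 to 99148991, plus strand) had 25.3 ± 2.43 CPM in FKl/l, 29.2 ± 3.83 in MHC CRE Only, 27.5 ± 3.62 in FKl/l MCK+ and 25.1 ± 2.98 in FKl/l MHC+ (SD, n = 6 each). Efnb2, the arterial ligand (chromosome 8, 8617434 to 8661242, minus strand), had 14.2 ± 1.9, 13.4 ± 0.679, 14 ± 1.8 and 12.1 ± 1.54 CPM in the same order. The annotation has 3 further units (E230020D15Rik, Gm45074 and Gm45073) on the same strand within Efnb2, so reads from them and from Efnb2 may not be separable. The lowest adjusted p of the genotype comparisons by edgeR's quasi-likelihood test was that of Efnb1 in FKl/l MHC+ against MHC CRE Only (log2 fold change -0.21, SE 0.0871, adjusted p = 0.225). In batch 2 alone it was called, at -0.33 (adjusted p = 0.0156), and in batch 1 alone it was at -0.06 (adjusted p = 0.885). Efnb2 against FKl/l was at -0.23 (SE 0.094, adjusted p = 0.229), with -0.38 in batch 1 alone (adjusted p = 0.0945) and -0.05 in batch 2 alone (adjusted p = 0.925).

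The part that Efnb3 made up of the B-type ligands went down in the same order as its level. By CPM per kb it was 70.9 ± 2.39% of the 3 genes in FKl/l and 66.6 ± 3.02% in MHC CRE Only. It was 62.7 ± 4.12% in FKl/l MCK+ and 58 ± 3.71% in FKl/l MHC+ (SD, n = 6 each). The FKl/l libraries had 68.8 to 75.1% and the FKl/l MHC+ libraries 54 to 63.2%, with no overlap. Those of MHC CRE Only had 62.8 to 69.9% and those of FKl/l MCK+ 57.3 to 67.3%, and both overlapped FKl/l MHC+. This share is built from the values that chose Efnb3 and is a description. The share of Efnb1 was 22.6 ± 1.36% in FKl/l and 33.8 ± 2.95% in FKl/l MHC+.

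**Figure D3:**
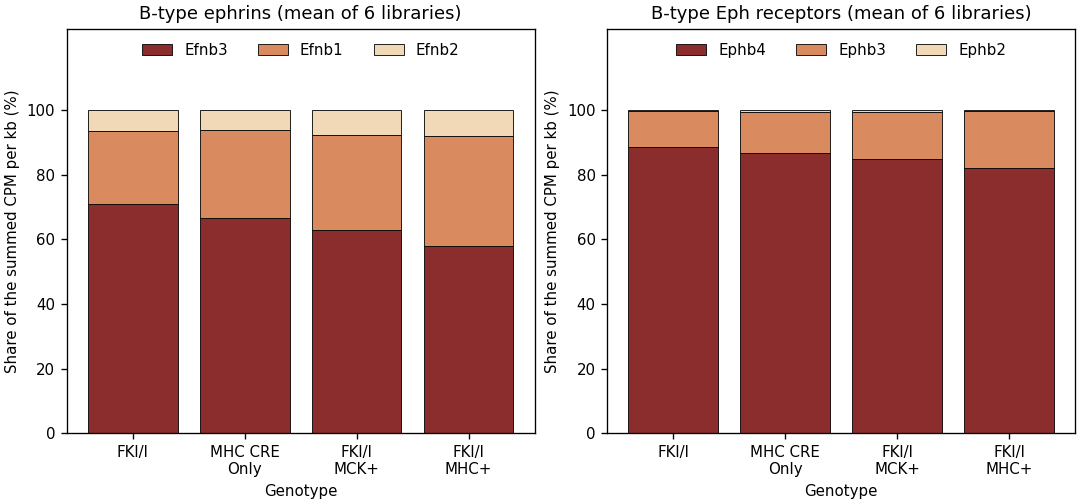
Mean share (%) of each gene in the summed CPM per kb of the 3 B-type ephrins (left) and of the 3 B-type receptors among the members (right), for 6 libraries per genotype. Ephb1 and Ephb6 are not in the receptor shares. Efnb3 goes from 70.9% in FKl/l to 58% in FKl/l MHC+, and Ephb3 from 11.1% to 17.4%.

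The A-type ligands were not called in any genotype comparison. Efna1 (chromosome 3, 89271733 to 89281142, minus strand) had 22.9 ± 4.58 CPM in FKl/l, 22.6 ± 2.4 in MHC CRE Only, 22.5 ± 4.52 in FKl/l MCK+ and 19.6 ± 3.62 in FKl/l MHC+ (SD, n = 6 each). The batch means lay apart in 2 genotypes. Batch 1 had 26.9 CPM and batch 2 had 19 CPM in FKl/l, and 26.3 and 18.7 CPM in FKl/l MCK+. The values were 21.7 and 23.6 CPM in MHC CRE Only and 19.2 and 20 CPM in FKl/l MHC+. Against FKl/l the log2 fold change of FKl/l MHC+ was -0.45 in batch 1 (adjusted p = 0.0847) and 0.07 in batch 2 (adjusted p = 0.905). The interaction of genotype with batch was called for Efna1 (adjusted p = 0.0488 by the quasi-likelihood test). No member was called for it by edgeR with RLE size factors, by limma voom or without the 3 libraries named above. DESeq2 called 2 members for it, and edgeR with no filter on low counts called 3.

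Efna5 (chromosome 17, 62604184 to 62881317, minus strand) had 10 ± 2.97 CPM in FKl/l, 8.45 ± 1.05 in MHC CRE Only, 9.12 ± 2.03 in FKl/l MCK+ and 11.3 ± 3.33 in FKl/l MHC+ (SD, n = 6 each). Batch 1 exceeded batch 2 in each genotype, with the widest gap in FKl/l MHC+, 14.3 against 8.26 CPM. Across genotypes batch 2 was at 69.1% of batch 1 (log2 fold change -0.53, SE 0.0788, edgeR quasi-likelihood adjusted p = 4.92e-06), a call that held in all 24 fits without 1 library. Against MHC CRE Only, FKl/l MHC+ was at 0.36 (SE 0.111, adjusted p = 0.088). The value was 0.72 in batch 1 alone (adjusted p = 0.0458) and 0.02 in batch 2 alone (adjusted p = 0.938).

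Among the receptors Ephb3 was higher in FKl/l MHC+ than in FKl/l. Ephb3 (chromosome 16, 21204755 to 21223305, plus strand) ranged from 7.43 to 13.9 CPM in FKl/l with a median of 12.1, and from 12.6 to 19.4 CPM in FKl/l MHC+ with a median of 17.8. The groups overlapped. The means were 11.3 ± 2.64 and 16.6 ± 3.19 CPM, with 13.8 ± 0.931 in MHC CRE Only and 15.1 ± 1.8 in FKl/l MCK+ (SD, n = 6 each). FKl/l MHC+ exceeded FKl/l by a log2 fold change of 0.56 (SE 0.111, edgeR quasi-likelihood adjusted p = 0.00527), and all 24 fits without 1 library called it, with adjusted p up to 0.0243. It was 0.61 in batch 1 alone (adjusted p = 0.0968) and 0.54 in batch 2 alone (adjusted p = 0.00323). Without a batch term the adjusted p was 0.0512. In the authors' deposited table, whose test statistic is 0 for small changes, Ephb3 stands at 0.58 with an adjusted p of 0.77, so it does not pass there. The other Ephb3 differences between genotypes were not called with both batches in the fit. FKl/l MCK+ against FKl/l was at 0.43 (SE 0.111, adjusted p = 0.379), and MHC CRE Only against FKl/l at 0.31 (SE 0.111, adjusted p = 0.222). FKl/l MHC+ against MHC CRE Only was at 0.24 (SE 0.11, adjusted p = 0.275), which was 0.07 in batch 1 alone (adjusted p = 0.894) and 0.44 in batch 2 alone, where it was called (adjusted p = 0.00791). It stood against FKl/l MCK+ at 0.13 (SE 0.11, adjusted p = 0.641). FKl/l had the lowest mean of Ephb3 and FKl/l MHC+ the highest. Batch 2 was higher over all genotypes (log2 fold change 0.27, SE 0.0782, adjusted p = 0.00628).

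Ephb4, the venous endothelial receptor (chromosome 5, 137350109 to 137378669, plus strand), was lower in FKl/l MHC+ than in MHC CRE Only. It ranged from 60.6 to 73.1 CPM in MHC CRE Only with a median of 65.2, and from 48.8 to 60.7 CPM in FKl/l MHC+ with a median of 54.3, so the groups met at 1 library each. Means were 65.7 ± 4.88 and 54.5 ± 3.93 CPM, with 62.7 ± 3.77 in FKl/l and 61.8 ± 3.73 in FKl/l MCK+ (SD, n = 6 each). The log2 fold change was -0.27 (SE 0.0625, edgeR quasi-likelihood adjusted p = 0.0222). The call was lost when libraries 2-1 or 2-2 of MHC CRE Only, or 2-2 or 2-3 of FKl/l MHC+, were left out, with adjusted p up to 0.0691. It was lost as well with no filter on low counts (adjusted p = 0.0551), without a batch term (0.0864) and with only these 2 genotypes in the fit (0.0618). The authors' deposited table has Ephb4 at -0.26 with a test statistic of 0 and an adjusted p of 1. That statistic is 0 for small changes, so this entry does not bear on the call made here. In the present fits the log2 fold change was -0.18 in batch 1 (adjusted p = 0.36) and -0.34 in batch 2 (adjusted p = 0.0292). Against FKl/l the value was -0.20 (SE 0.0625, adjusted p = 0.0944), and -0.23 (adjusted p = 0.0481) without the 3 libraries named above or adjusted p = 0.0447 without FKl/l MHC+ 2-1. By CPM per kb, Ephb4 made up 88.4 ± 2.54% of the 3 B-type receptors among the members in FKl/l and 82.1 ± 3.16% in FKl/l MHC+, and Ephb3 11.1 ± 2.6% and 17.4 ± 3.1% (SD, n = 6 each). These shares leave out the B-type receptors Ephb1 and Ephb6, which are not members. Zan, which overlaps Ephb4 on the opposite strand, had 23 counts in all 24 libraries together.

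Markers of several other cell types also had their lowest summed level in FKl/l MHC+, endothelium among them. The 12 endothelial markers summed to 1100 ± 128 CPM in FKl/l, 1077 ± 67.4 in MHC CRE Only, 1198 ± 132 in FKl/l MCK+ and 975 ± 90 in FKl/l MHC+ (SD, n = 6 each), and none was at 0. Their libraries ranged from 922 to 1251 CPM in FKl/l, 1004 to 1171 in MHC CRE Only, 1053 to 1349 in FKl/l MCK+ and 874 to 1098 in FKl/l MHC+. In FKl/l MHC+, 1 of the 12 was called lower against FKl/l, 1 against MHC CRE Only and 8 against FKl/l MCK+, where 1.71%, 1.87% and 2.15% of all genes were called in either direction. Robo4, an endothelial guidance receptor, was the member called in all 3, at -0.32, -0.33 and -0.43. The median log2 fold change of the 12 was -0.183, -0.163 and -0.295 in that order, where that of all genes was -0.00346, -0.0161 and -0.00713. Of the 8 arterial markers the Notch ligand Dll4 was called lower against FKl/l (-0.38, adjusted p = 0.0276, lost when libraries 1-1 or 1-2 of FKl/l, or 1-2 or 1-3 of FKl/l MHC+, were left out, up to 0.0988). The 8 venous and lymphatic markers summed to 209 ± 7.69, 208 ± 5.13, 221 ± 8.99 and 187 ± 12.5 CPM in FKl/l, MHC CRE Only, FKl/l MCK+ and FKl/l MHC+ (SD, n = 6 each). Aplnr, the apelin receptor, was the one of the 8 called lower, at -0.69 against MHC CRE Only (adjusted p = 0.0381) and -0.73 against FKl/l MCK+ (adjusted p = 0.0244). The first of these was called in 16 of 24 fits without 1 library, the exceptions being any batch 2 library of MHC CRE Only or any FKl/l MHC+ library but 2-1 (up to 0.0962). The second was called in 18, the exceptions being any batch 1 library of FKl/l MCK+ or libraries 1-2, 1-3 or 2-3 of FKl/l MHC+ (up to 0.0804).

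The summed levels of fibroblast and mural markers were lowest in FKl/l MHC+ too, and that of macrophage markers highest. In the same order of genotypes, 8 fibroblast markers summed to 1488 ± 122, 1467 ± 75.7, 1555 ± 138 and 1327 ± 103 CPM (SD, n = 6 each). Those of smooth muscle and pericytes, also 8, summed to 769 ± 65.9, 861 ± 162, 799 ± 69.3 and 751 ± 57.6 CPM, and 7 of macrophages to 134 ± 18, 134 ± 10.6, 142 ± 11.8 and 149 ± 19.9 CPM. None of these markers was at 0. Gsn, of the fibroblast list, had means of 773, 752, 780 and 588 CPM in that order. Against both control genotypes its mean fell by more than the fibroblast sum, so the other fibroblast markers together were not lower there. The median log2 fold change of the fibroblast list was -0.0881 against FKl/l and -0.188 against MHC CRE Only. Gsn was lower against FKl/l (-0.39, adjusted p = 0.0274), a call lost when libraries 1-2, 1-3 or 2-1 of FKl/l, or 1-2, 1-3 or 2-3 of FKl/l MHC+, were left out (up to 0.101). Pdgfrb, the growth factor receptor of mural cells, was lower against MHC CRE Only (-0.33, adjusted p = 0.00183) and called in all 24 fits without 1 library. It was also called lower against FKl/l MCK+ (-0.36, edgeR quasi-likelihood adjusted p = 0.00079). Against FKl/l, Pdgfrb was not called (-0.11, adjusted p = 0.364 by the same test), nor was any other of the 8 mural markers. MHC CRE Only itself was at 0.22 against FKl/l for Pdgfrb (adjusted p = 0.104). Mrc1, a macrophage receptor, was higher against MHC CRE Only (0.32, adjusted p = 0.0464) and was called in 9 of the 24. It was not called against FKl/l (0.18, edgeR quasi-likelihood adjusted p = 0.319) or FKl/l MCK+ (0.13, adjusted p = 0.498). No other macrophage marker was called in a genotype comparison. The part of these cell types in the Ephb4, Efnb2 and other members' values was not tested.

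Epha4 and Ephb2 were not called in any genotype comparison. Epha4, a receptor of both ephrin types (chromosome 1, 77367185 to 77515088, minus strand), had 39.8 ± 3.72, 37.3 ± 5.21, 39.9 ± 4.27 and 38.3 ± 4.11 CPM in FKl/l, MHC CRE Only, FKl/l MCK+ and FKl/l MHC+ (SD, n = 6 each). Its log2 fold changes lay between -0.10 and 0.04. Ephb2 (chromosome 4, 136647539 to 136835988, minus strand) had 0.903 ± 0.254, 1.3 ± 0.403, 1.44 ± 0.511 and 0.982 ± 0.284 CPM in the same order. Its value in FKl/l MCK+ against FKl/l was 0.66 with an SE of 0.255 (edgeR quasi-likelihood adjusted p = 0.827).

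**Figure D4:**
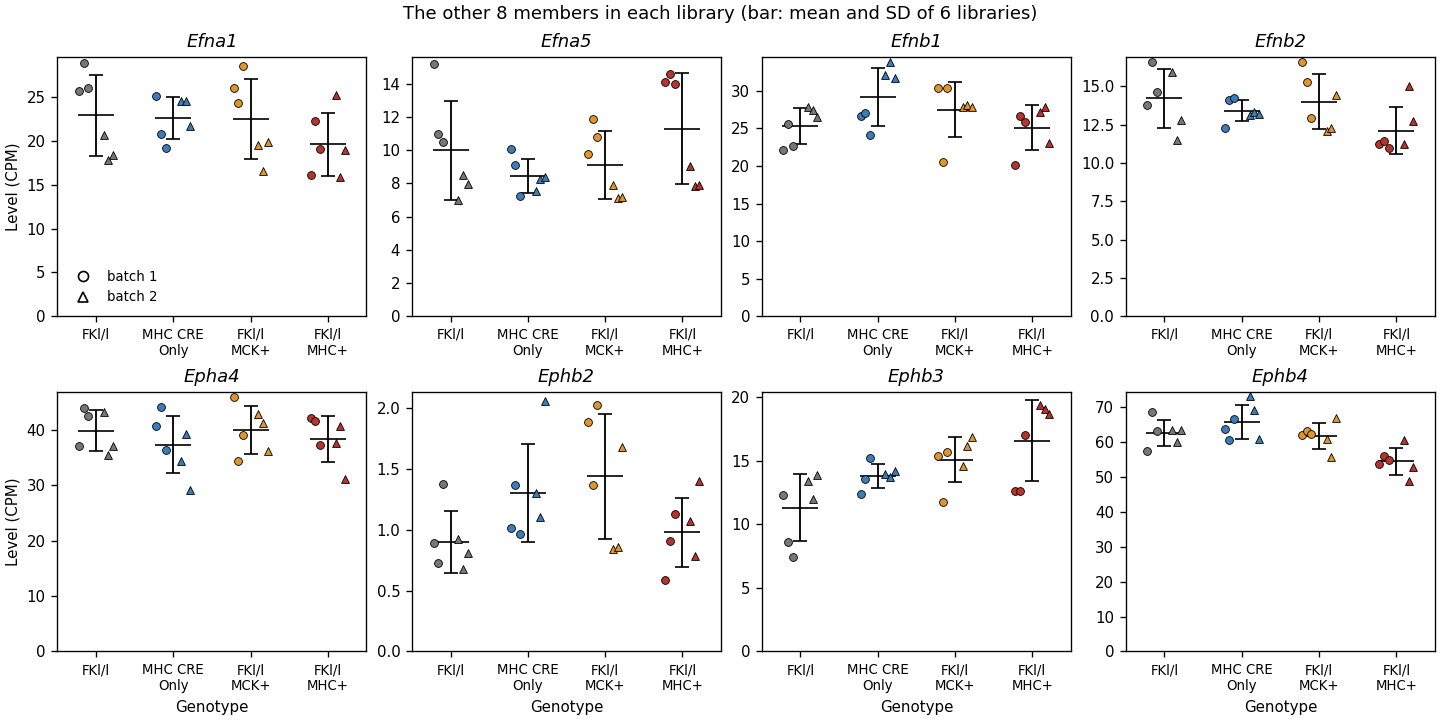
CPM of the other 8 members in each library by genotype; circles are batch 1, triangles batch 2, and bars give the mean and SD of 6 libraries. Ephb3 is lowest in FKl/l and Ephb4 lowest in FKl/l MHC+. Efna5 shows a gap between batches in FKl/l, FKl/l MCK+ and FKl/l MHC+, widest in FKl/l MHC+.

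Counted over the 9 members, FKl/l MCK+ against FKl/l gave 0 called by edgeR's quasi-likelihood test, where 0.0499% of all genes tested were called. By that test 3 members had an unadjusted p under 0.05, as did 839 of the 16018 genes. DESeq2 called 1 member there, and its count over all genes is in the closing paragraph. By the quasi-likelihood test FKl/l MHC+ against FKl/l gave 2, Efnb3 lower and Ephb3 higher, where 1.71% of genes were called. FKl/l MHC+ against MHC CRE Only gave 2, Efnb3 and Ephb4, both lower, against 1.87%. FKl/l MHC+ against FKl/l MCK+ gave 1, Efnb3 lower, against 2.15%. The counts that hold Efnb3 in these 3 comparisons rest on the contrasts that chose it and are read for nothing. MHC CRE Only against FKl/l gave 0, against 0.0437%. DESeq2 called 0 members there, and its count over all genes is in the closing paragraph. By the quasi-likelihood test 3 members had an unadjusted p under 0.05, as did 2069 of the 16018 genes. Batch gave 4 of 9, with Efna5 lower and Efnb1, Efnb3 and Ephb3 higher in batch 2, against 38.4% of all genes, a share near the background. The Efnb1 batch call was lost with RLE size factors (adjusted p = 0.0681), no filter (0.0708), DESeq2 (0.0652), without the 3 libraries named above (0.0821) and without FKl/l MCK+ 1-2 (0.105), and that of Efnb3 as given above. The interaction of genotype with batch gave 1, against 4.91%.

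**Figure D5:**
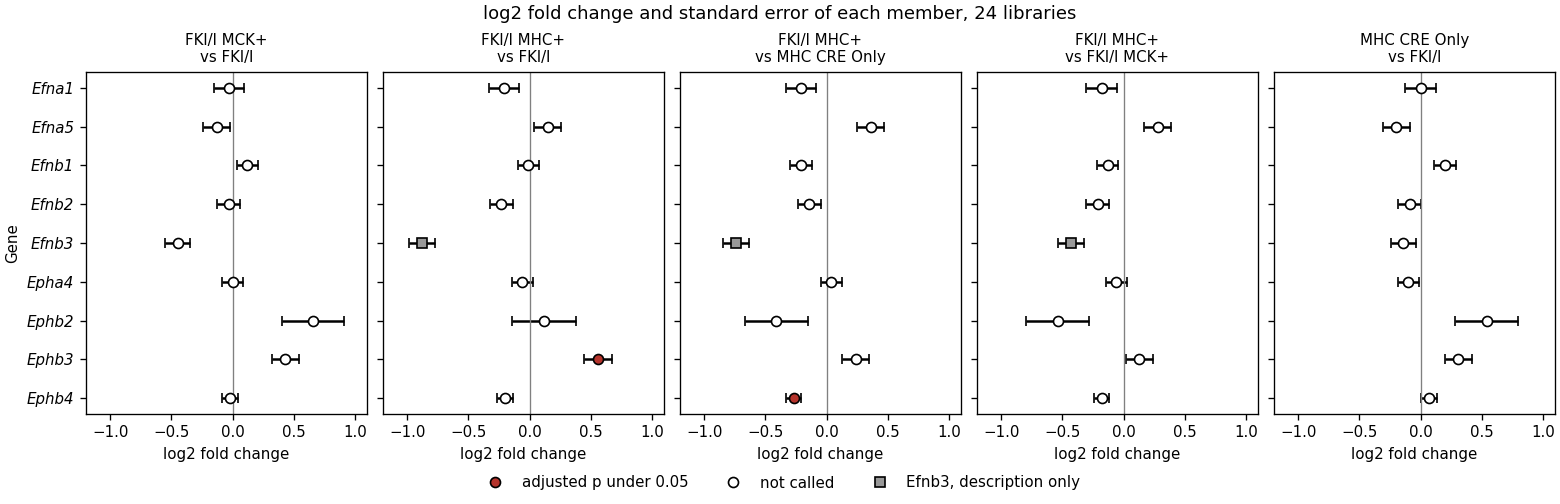
log2 fold change with its standard error for each member in 5 genotype comparisons from 1 fit of 24 libraries. Red points are called at adjusted p under 0.05, open points are not, and grey squares mark Efnb3 where its value is a description; Ephb3 against FKl/l (0.56) and Ephb4 against MHC CRE Only (-0.27) are the red points.

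Of the other genes of the family, 13 were listed and 8 had counts enough to be tested, and their levels were low, with summed levels of 20.3 ± 1.7 CPM in FKl/l and 19.3 ± 1.01 CPM in FKl/l MHC+ (SD, n = 6 each). Ephb1, a receptor of the B-type ligands, was lower in FKl/l MHC+ than in FKl/l MCK+, at 5.34 ± 0.629 against 7.11 ± 0.435 CPM (log2 fold change -0.41, SE 0.0985, edgeR quasi-likelihood adjusted p = 0.0231). Its libraries did not overlap between these genotypes, and the call was lost when libraries 1-1 or 1-2 of FKl/l MCK+ or 1-3 or 2-3 of FKl/l MHC+ were left out (adjusted p up to 0.0696). The other 7 tested were called in no genotype comparison. Ephb6, a receptor without kinase activity, had 1.17 to 3.58 CPM over the genotypes.

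Of 28 genes that carry forward signalling, 0 were called in FKl/l MHC+ against FKl/l, 2 against MHC CRE Only and 1 against FKl/l MCK+, where 1.71%, 1.87% and 2.15% of all genes were. Arhgef15, an exchange factor that is abundant in endothelium, was lower against MHC CRE Only (log2 fold change -0.28, SE 0.0681, edgeR quasi-likelihood adjusted p = 0.0302) and against FKl/l MCK+ (-0.31, SE 0.0681, adjusted p = 0.0141). Leaving out FKl/l MHC+ 2-3 ended both calls, and 4 other libraries ended the first. Rasa1, a brake on Ras that binds activated Eph receptors, was higher against MHC CRE Only (0.26, SE 0.0626, adjusted p = 0.0259), lost without MHC CRE Only 1-2, MHC CRE Only 2-1 or FKl/l MHC+ 2-3. Of 16 genes of reverse signalling and ephrin shedding, 1 was called, Plcg1, a phospholipase, lower against FKl/l MCK+ (-0.32, SE 0.08, adjusted p = 0.0298) and lost without any of 5 libraries, FKl/l MCK+ 1-2 among them. None of these signalling genes was called in FKl/l MCK+ or MHC CRE Only against FKl/l. At the gene neighbours of Efnb3, Dnah2, Kdm6b, Wrap53 and Trp53, no genotype comparison was called. Wrap53 is the closest, 1552 bases away, and was at -0.13 against FKl/l in FKl/l MHC+ (adjusted p = 0.56).

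Over the 24 libraries, on log2 CPM centred within each batch, the genes most like Efnb3 among 9425 with a mean of at least 5 CPM were Slc2a12, a glucose transporter (Pearson r = 0.882), Bckdhb (0.843), a subunit of branched-chain ketoacid dehydrogenase, and Maob, monoamine oxidase B (0.839). Gpt, Fdft1 and Nmnat3 followed at 0.824, 0.823 and 0.812. With genotype means removed the 6 had r between 0.458 and 0.806. The most unlike were the Wnt receptor Fzd2 (-0.84), Cntn2 (-0.838) and Casq1 (-0.828), and Fzd2 was at -0.222 with genotype removed. Fkbp1a was at 0.728, the 29th highest, and at -0.208 with genotype removed. Among members Efnb3 went with Ephb4 (0.617, or 0.077 with genotype removed) and against Ephb3 (-0.518, or 0.232). These values describe the libraries, which share genotypes and depth scaling, and no test was made of them.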

How the data were processed

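Total RNA from whole hearts was sequenced in 24 strand-specific libraries, per the labels' protocols. The authors deposited whole-number read counts per gene, and the submitters' processing notes name RSEM, STAR, Trim Galore, FastQC and bcl2fastq 2.17, with genome build mm10. How RSEM's estimates became whole counts and which strand setting was used are not stated in these sources. Per the file headers, the authors' deposited tables give log2 fold changes and mean log2 levels, p-values before and after adjustment, and the score of each test. They were not used for the calls.

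The 3660 rows named by a transcript, 0.873 to 4.28% of a library's counts, were left out. They are outside library sizes and tests. Only 544 of them could be matched to a gene row, and these added no counts to a member. The rest were not assigned to a gene. Genes were tested with edgeR 4.0.16 (quasi-likelihood F-test, TMM, filterByExpr by genotype, robust; limma 3.58.1, R 4.3.3) in 1 fit of 24 libraries with genotype and batch. Calls required a Benjamini-Hochberg adjusted p (2-sided, over 16018 genes) under 0.05. SE is that of the log2 fold change. Positions and merged exon lengths come from GENCODE M21. The script was checked on simulated data. DESeq2 1.42.0 and limma voom were alternatives.

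The members, gene lists, tests and alternatives were chosen with earlier results of these data known, and no p was adjusted over a list. Named genes are the members, Fkbp1a, up to 4 called genes of each of 12 other lists, the neighbours of Efnb3, and the 6 most and 3 least alike genes. Libraries of a genotype are not stated to come from separate animals, so p-values measure the spread between libraries. No 2 libraries of a genotype agreed within counting noise (chi-square per degree of freedom 8.02 to 148). Promoter sequences from RefSeq (GRCm38.p6) matched 8 of the 9 members and are not printed.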

Additional observations from a re-analysis of the deposited data

Results flagged for a closer look

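In 36 groups of 6 libraries, 1 per member and genotype, 3 held a library that lay apart from the other 5 by Dixon's criterion, which chance alone reaches in about 1 of 20 groups. Efnb1 was at 20.5 CPM in FKl/l MCK+ 1-2, where the others of that genotype had 27.8 to 30.3 CPM. Ephb2 was at 1.38 CPM in FKl/l 1-3, where the others had 0.677 to 0.922 CPM. Ephb2 was at 2.06 CPM in MHC CRE Only 2-3, where the others had 0.963 to 1.37 CPM. For Efna1 the genotype differences varied between batches by the interaction test (edgeR quasi-likelihood adjusted p = 0.0488). Its log2 fold change in FKl/l MHC+ against FKl/l was -0.45 in batch 1 and 0.07 in batch 2.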

How the results depend on the processing

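Counts of members called were recomputed under each alternative. The main counts of the 3 comparisons with FKl/l MHC+ include Efnb3, which was chosen by its level there. Their moves in this section, as above, are descriptions and are read for nothing. For FKl/l MCK+ against FKl/l the count of 0 became 1 by DESeq2 and 1 with only the 2 genotypes, Efnb3 both times. For FKl/l MHC+ against FKl/l the count of 2 became 1 without a batch term and 1 in batch 1 alone. Against MHC CRE Only the count of 2 became 1 with no filter on low counts, 1 without a batch term, 1 with only the 2 genotypes and 4 in batch 2 alone. Against FKl/l MCK+ the count of 1 became 0 without a batch term, 0 with only the 2 genotypes and 0 in batch 1 alone. The batch count of 4 became 2 with no filter. The interaction count of 1 became 0 with RLE size factors, 3 with no filter, 2 by DESeq2, 0 by limma voom and 0 without 3 libraries (FKl/l 1-1, and those labelled 1-3 and 2-3 of MHC CRE Only), an alternative chosen after seeing the data. The cause of these moves was not tested. Leaving out 1 library at a time gave 0 to 0, 2 to 3, 1 to 2, 0 to 0 and 0 to 1 members for FKl/l MCK+ against FKl/l, FKl/l MHC+ against FKl/l, against MHC CRE Only, MHC CRE Only against FKl/l and FKl/l MHC+ against FKl/l MCK+, 3 to 5 for batch and 0 to 2 for the interaction, where 4 of 24 fits kept the count of 1. No called value of a member changed sign in the alternatives run.

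The replicate numbers did not pair the libraries: over 36 pairs of same-numbered libraries the correlation of deviations lay between -0.348 and 0.0979, and 8 of 24 libraries correlated best with their own number. With the replicate block the counts of members called were 0, 2, 2, 0 and 1 in the 5 genotype comparisons, in the order above, and 3 for batch.

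Over all genes, counts called moved by over 1.5 times by DESeq2 (20, 553, 591, 207 and 578 in the order above) and without a batch term (120 in FKl/l MHC+ against FKl/l, 42 against MHC CRE Only and 103 against FKl/l MCK+). Leaving out 1 library gave 5 to 11, 152 to 407, 135 to 482, 4 to 17 and 143 to 490. Another scaling moved the median of all genes by -0.041 at the farthest on the log2 scale. Of the members' log2 fold changes, 1735 kept direction and side of the threshold, 41 lost a call, 13 gained one and 65 uncalled values changed sign. Ephb2 had 19 to 80 counts per library.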
